A study of Arabidopsis thaliana with 18 samples.

Results

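This account covers 10 genes of aliphatic glucosinolate synthesis in whole Arabidopsis thaliana seedlings of the Columbia strain, out of 33602 genes in the table. They were picked by name for their place in the pathway, with earlier results of these data known, so counts of them below are descriptive. The members are the transcription factors MYB28 (AT5G61420) and MYB29 (AT5G07690), the chain elongation genes BCAT4 (AT3G19710), BAT5 (AT4G12030), MAM1 (AT5G23010) and MAM3 (AT5G23020), and the core structure genes CYP79F1 (AT1G16410), CYP79F2 (AT1G16400), CYP83A1 (AT4G13770) and SOT18 (AT1G74090). Seedlings were 7 days old and came from 6 groups with 3 libraries each, 18 in all. The groups were the BBX18-/-BBX23-/- double mutant at 29 °C and at 22 °C (called dm), the PIF4-/- mutant at 29 °C and at 22 °C (called pif4), and the wild type at 29 °C and at 22 °C (called WT). The labels name no allele and give neither the time spent at 29 °C nor the hour of harvest, and nothing in them says that replicates were grown apart, so each p-value measures the spread between these libraries, which may be technical.

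Glucosinolates are sulfur-containing defence compounds of the cabbage order, stored away from the enzyme myrosinase and split by it when tissue is crushed. The aliphatic kind starts from methionine, whose side chain is lengthened in repeated rounds in the chloroplast before the amino acid is turned into the core glucosinolate by cytochromes P450, glutathione transferases, a C-S lyase, a glucosyltransferase and a sulfotransferase. MYB28 and MYB29 activate most of these genes together. PIF4, a bHLH transcription factor, drives elongation growth in warmth, and BBX18 and BBX23 are B-box proteins. The study compared seedlings lacking them at both temperatures.

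The values were FPKM, fragments per kilobase of transcript scaled to library size, which are set per length, so that levels of different genes can be compared. Folds are differences of log2(FPKM + 1), which understate the change of low genes, and a change was called at an adjusted p under 0.05 in limma (2-sided, Benjamini-Hochberg over 19116 genes). Sequencing depth is unknown, and 17791 to 18367 genes per library reached 1 FPKM. Whole seedlings were measured, in which fewer cells of a type and less RNA per cell cannot be told apart. Among the targeted genes, PIF4 read 9.09, 11.0 and 7.84 FPKM in pif4 against 19.4, 16.1 and 16.8 FPKM in WT at 29 °C, a difference of -0.84 (adjusted p = 0.0109). At 22 °C it read 7.90, 6.96 and 6.30 FPKM in pif4 against 10.4, 10.9 and 8.83 FPKM in WT, a difference of -0.46 that was not called (adjusted p = 0.987), so the test does not check the pif4 label at 22 °C. BBX18 read 7.12, 51.3 and 26.1 FPKM in dm against 9.43, 64.3 and 29.9 FPKM in WT at 29 °C, which did not pass the test (adjusted p = 1), and BBX23 was listed at 0 in all 18 libraries, so these values do not check the dm label. The photosynthesis genes CAB3, RBCS1A and RCA, used as shoot markers, fell at 29 °C in each of the 3 genotypes. Their summed level ran from 15313 to 18172 FPKM in dm, 13701 to 21434 FPKM in pif4 and 15126 to 24669 FPKM in WT at 29 °C, against 41180 to 45522 FPKM in dm, 34485 to 48548 FPKM in pif4 and 35737 to 56120 FPKM in WT at 22 °C. Of 6 root markers 0 passed the test, their sum staying between 1554 and 2547 FPKM, and the 3 seed markers summed to at most 1.49 FPKM, with SESA1 at 0 throughout. The part of the shoot change in the warm responses below was not tested.

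All 10 members passed the filter of at least 1 FPKM in at least 3 libraries, 9 of them with at least 1 FPKM in all 18 libraries and MYB29 in 17. In WT at 29 °C the group means ran down from 90.4 FPKM for CYP83A1 through 67.0 for BCAT4, 48.4 for SOT18, 45.6 for MAM1, 34.0 for MAM3, 18.4 for MYB28, 15.6 for CYP79F2, 14.9 for CYP79F1 and 4.91 for BAT5 to 0.978 for MYB29. MYB28 stood above both CYP79F genes in that order, and the transporter and MYB29 came last. In WT at 22 °C CYP83A1 also led, at 157 FPKM, and MYB29 was again last, at 5.68 FPKM, but MAM1 stood above SOT18 and CYP79F1 above both MYB28 and CYP79F2. The summed FPKM of the 10 genes was 420 ± 25.3 in dm at 29 °C, 465 ± 86.9 in pif4 at 29 °C and 340 ± 48.9 in WT at 29 °C, against 612 ± 78.7 in dm, 658 ± 85.1 in pif4 and 600 ± 69.1 in WT at 22 °C (SD, n = 3 each). In every genotype all 3 sums at 29 °C were below the lowest at 22 °C, most narrowly in pif4, where the highest sum at 29 °C was 555 FPKM and the lowest at 22 °C 575 FPKM. As a share of a library's total FPKM, the temperatures stood apart in WT alone (0.0333% to 0.0451% at 29 °C, 0.0496% to 0.0621% at 22 °C). The shares overlapped in dm (0.0490% to 0.0534% at 29 °C, 0.0508% to 0.0642% at 22 °C). They also overlapped in pif4 (0.0513% to 0.0576% at 29 °C, 0.0547% to 0.0684% at 22 °C).

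**Figure D1:**
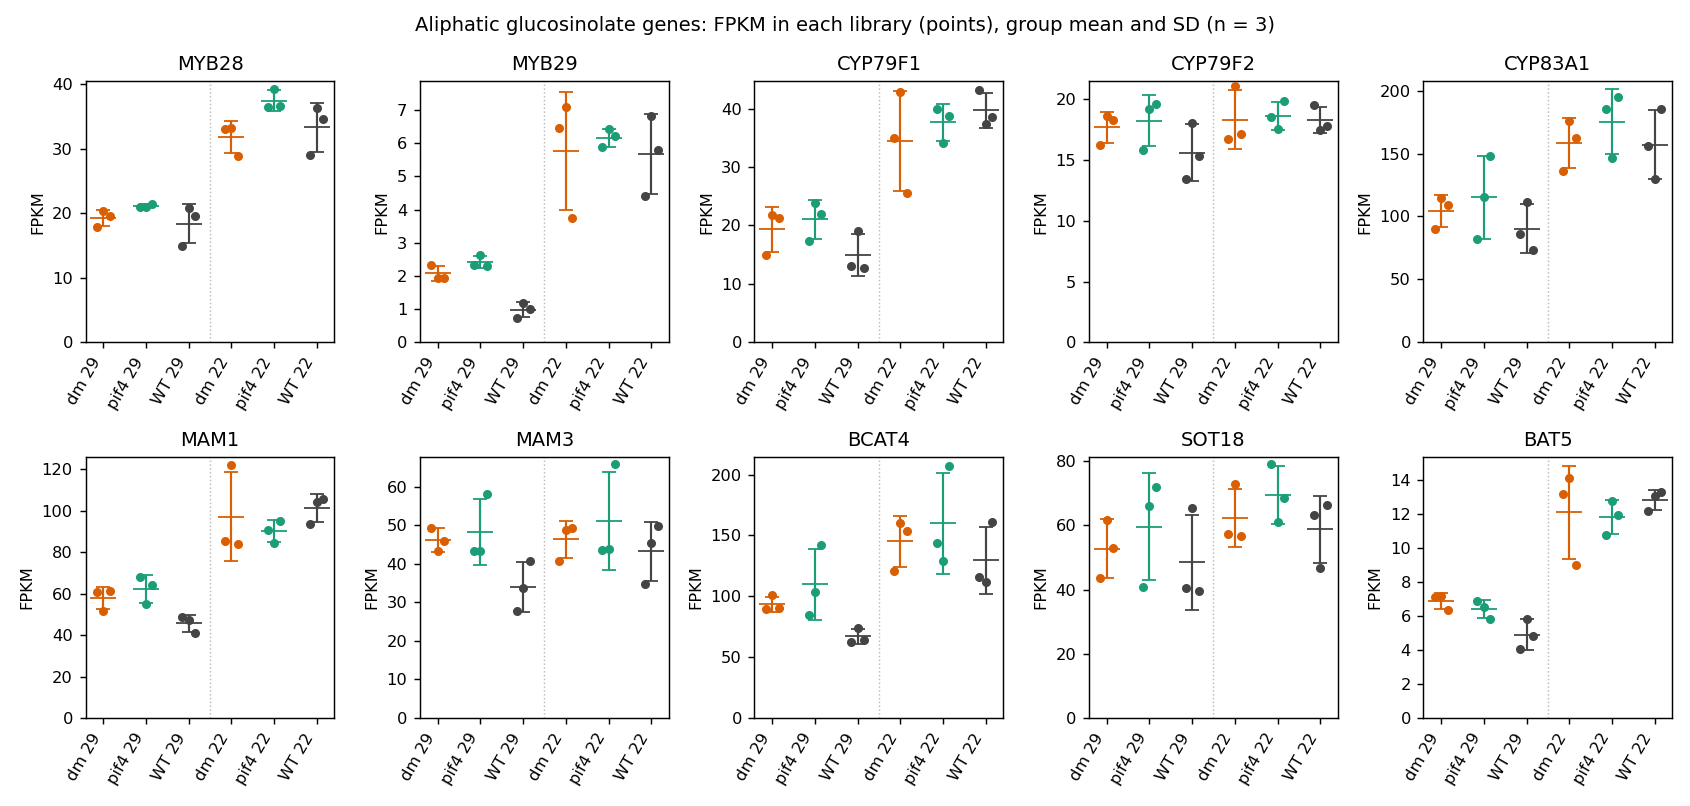
FPKM of each of the 10 genes (y axis, from 0, a scale for each panel) in the 6 groups (x axis, dm, pif4 and WT at 29 °C left of the same at 22 °C), with a point per library and the mean and SD of 3. MYB29 sits between 0.746 and 2.64 FPKM in the 9 libraries at 29 °C and between 3.76 and 7.09 FPKM in the 9 at 22 °C, while CYP79F2 overlaps between the temperatures.

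Members of the set were lower at 29 °C in every genotype. In dm 5 of the 10 members fell at 29 °C against 22 °C and 0 rose, where 8.06% of all genes were called lower and 5.52% higher. In pif4 5 of 10 fell and 0 rose (8.49% of all genes lower, 4.67% higher), and in WT 7 of 10 fell and 0 rose (8.55% lower, 5.63% higher). The median log2 difference of the 10 was -0.66 in dm, -0.59 in pif4 and -0.88 in WT, beside medians of all genes of 0.00 in dm, -0.03 in pif4 and -0.01 in WT, and the coefficient was negative for all 10 in each genotype. The libraries at 29 °C lay wholly below those at 22 °C for 7 members in dm, 5 in pif4 and 7 in WT, against 18.8%, 16.5% and 14.8% of all genes in dm, pif4 and WT.

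MYB29 (TAIR10.1 chr5:2446669-2448584, plus strand), one of the pair of MYB activators, had the steepest fall of the members. It read 2.34, 1.95 and 1.95 FPKM in dm at 29 °C against 6.46, 7.09 and 3.76 FPKM in dm at 22 °C, and 2.34, 2.64 and 2.29 FPKM in pif4 at 29 °C against 5.88, 6.42 and 6.22 FPKM in pif4 at 22 °C. In WT it read 0.746, 1.19 and 1.00 FPKM at 29 °C against 4.42, 6.83 and 5.80 FPKM at 22 °C. Every library at 29 °C was below every library at 22 °C, and the 3 WT libraries at 29 °C were the lowest of all 18. The log2 difference was -1.10 ± 0.18 in dm, -1.07 ± 0.18 in pif4 and -1.75 ± 0.18 in WT (SE), with adjusted p of 6.28e-04, 8.69e-04 and 9.56e-06 in dm, pif4 and WT by limma. Without the pseudocount, the mean at 29 °C was 36.1% of that at 22 °C in dm, 39.2% in pif4 and 17.2% in WT. By size of fall in WT, MYB29 stood at place 51 of the 19116 genes.

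MYB28 (chr5:24689069-24691187, minus strand), the other MYB activator, was the more abundant of the pair and changed to a like extent in the 3 genotypes. It read 17.9, 20.3 and 19.5 FPKM in dm at 29 °C against 33.2, 33.3 and 29.0 FPKM in dm at 22 °C, and 20.99, 21.1 and 21.4 FPKM in pif4 at 29 °C against 36.5, 39.3 and 36.6 FPKM in pif4 at 22 °C. In WT it read 14.9, 20.8 and 19.6 FPKM at 29 °C against 29.0, 36.4 and 34.6 FPKM at 22 °C. The temperatures did not overlap in any genotype, and the log2 differences of -0.70 in dm, -0.80 in pif4 and -0.83 in WT all passed the test. The ratio of MYB29 to MYB28 was 0.109 ± 0.019 in dm, 0.115 ± 0.0097 in pif4 and 0.0528 ± 0.0039 in WT at 29 °C, against 0.179 ± 0.044 in dm, 0.165 ± 0.0045 in pif4 and 0.169 ± 0.018 in WT at 22 °C (SD, n = 3). The mutants' ratios at 29 °C lay above all 3 WT ratios at 29 °C.

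Of the chain elongation members, BCAT4, BAT5 and MAM1 fell in WT while MAM3 did not pass the test. BCAT4 (chr3:6846969-6849582, minus strand) is the aminotransferase that opens the route by turning methionine into its keto acid. It read 89.8, 101 and 90.3 FPKM in dm at 29 °C against 121, 160 and 154 FPKM in dm at 22 °C, and 62.8, 74.2 and 64.0 FPKM in WT at 29 °C against 115, 111 and 161 FPKM in WT at 22 °C. In pif4 it read 84.3, 103 and 142 FPKM at 29 °C against 144, 129 and 207 FPKM at 22 °C, and only there did the temperatures overlap. The log2 difference was -0.62 in dm (adjusted p = 0.0557), -0.54 in pif4 (adjusted p = 0.0947) and -0.92 in WT (adjusted p = 0.00590), so that limma called it in WT. BCAT4 overlaps AT3G19700 on the opposite strand, and the library kit named in the labels does not mark strand, so reads of the overlap cannot be assigned to either gene.

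BAT5 (chr4:7210807-7213376, plus strand) carries keto acids across the chloroplast envelope, and it was low but changed steeply. It read 7.14, 7.19 and 6.36 FPKM in dm at 29 °C against 13.2, 14.2 and 9.001 FPKM in dm at 22 °C, and 6.90, 6.53 and 5.81 FPKM in pif4 at 29 °C against 10.8, 12.8 and 11.9 FPKM in pif4 at 22 °C. In WT it read 4.07, 5.85 and 4.80 FPKM at 29 °C against 12.2, 13.04 and 13.3 FPKM at 22 °C. No library at 29 °C reached any library at 22 °C, and the log2 differences were -0.71 in dm, -0.79 in pif4 and -1.24 in WT, all called.

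MAM1 and MAM3 are methylthioalkylmalate synthases, which add the carbon unit in each round, and they lie near each other on chromosome 5 (TAIR10.1 chr5:7703041-7706973 and chr5:7718118-7721866, both on the plus strand). MAM1 read 60.6, 51.6 and 61.1 FPKM in dm at 29 °C against 85.5, 122 and 84.0 FPKM in dm at 22 °C, and 67.9, 55.0 and 64.0 FPKM in pif4 at 29 °C against 90.9, 84.7 and 95.2 FPKM in pif4 at 22 °C. In WT it read 48.6, 47.2 and 41.1 FPKM at 29 °C against 93.8, 104 and 106 FPKM at 22 °C. Its log2 differences of -0.72 in dm, -0.53 in pif4 and -1.13 in WT passed the test, with no overlap between the temperatures. The pif4 call ended without pif4 replicate 1 or 3 at 22 °C or replicate 2 at 29 °C (adjusted p = 0.0639, 0.0658 and 0.0877).

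MAM3 showed no called change in any genotype. It read 49.4, 43.2 and 45.8 FPKM in dm at 29 °C against 40.8, 48.9 and 49.3 FPKM in dm at 22 °C, and 27.8, 33.6 and 40.7 FPKM in WT at 29 °C against 34.8, 45.3 and 49.7 FPKM in WT at 22 °C. In pif4 it read 43.4, 43.3 and 58.1 FPKM at 29 °C against 43.5, 43.9 and 65.8 FPKM at 22 °C. The temperatures overlapped in all 3 genotypes. The log2 difference was 0.00 in dm (95% interval -0.40 to 0.39), -0.07 in pif4 (-0.46 to 0.33) and -0.34 in WT (-0.73 to 0.05). The ratio of MAM1 to MAM3 at 29 °C was 1.25 ± 0.073 in dm, 1.31 ± 0.24 in pif4 and 1.39 ± 0.37 in WT, against 2.10 ± 0.40 in dm, 1.82 ± 0.33 in pif4 and 2.38 ± 0.29 in WT at 22 °C (SD, n = 3). Ratios at 29 °C were all below those at 22 °C in dm and WT and overlapped with them in pif4. The coding sequences of the pair are 83.8% identical, with a longest shared run of 30 bases. A coding read longer than that run would hold at least 1 base that differs. How the counting placed reads is unknown, so whether any were split between the pair cannot be told.

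CYP79F1 and CYP79F2 are the cytochromes that turn chain-elongated methionine into aldoximes, CYP79F1 for short and long chains and CYP79F2 for long ones. They stand in tandem on the plus strand of chromosome 1, CYP79F2 at chr1:5605044-5607498 and CYP79F1 at chr1:5608682-5612064 in TAIR10.1, and their coding sequences share 1475 of 1605 aligned bases, or 91.9%, with a longest identical run of 100 bases. The stretch below, bases 32 to 181 of the CYP79F1 coding sequence and 29 to 178 of the CYP79F2 coding sequence from the RefSeq annotation of TAIR10.1, is shown because these near-identical genes differed in their values. Capitals mark the 18 bases at which they differ.
CYP79F1: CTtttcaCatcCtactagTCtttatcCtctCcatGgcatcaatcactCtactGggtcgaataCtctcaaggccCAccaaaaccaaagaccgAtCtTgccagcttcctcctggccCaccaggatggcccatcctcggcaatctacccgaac
CYP79F2: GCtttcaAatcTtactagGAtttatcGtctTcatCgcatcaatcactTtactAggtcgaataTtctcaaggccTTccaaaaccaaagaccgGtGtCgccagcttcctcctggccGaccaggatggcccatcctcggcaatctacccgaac
A read lying wholly within a run without a capital would match both genes, while a longer one would cross a base that differs. The sources used here do not say how the counting treated reads that match both.

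CYP79F1 fell at 29 °C in every genotype. It read 14.9, 21.8 and 21.3 FPKM in dm at 29 °C against 35.0, 42.8 and 25.6 FPKM in dm at 22 °C, and 17.3, 23.9 and 21.9 FPKM in pif4 at 29 °C against 40.0, 34.1 and 38.8 FPKM in pif4 at 22 °C. In WT it read 13.1, 19.1 and 12.7 FPKM at 29 °C against 43.2, 37.4 and 38.6 FPKM at 22 °C. All libraries at 29 °C were below all at 22 °C, and the log2 differences were -0.79 ± 0.20 in dm, -0.82 ± 0.20 in pif4 and -1.37 ± 0.20 in WT (SE), with adjusted p of 0.0131, 0.0108 and 1.94e-04 in dm, pif4 and WT by limma. The dm call ended without dm replicate 2 at 22 °C (adjusted p = 0.0795) or dm replicate 1 at 29 °C (adjusted p = 0.0642).

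CYP79F2 stayed between 13.4 and 21.1 FPKM in the 18 libraries. It read 16.2, 18.6 and 18.3 FPKM in dm, 15.9, 19.2 and 19.6 FPKM in pif4, and 13.4, 18.1 and 15.3 FPKM in WT at 29 °C. At 22 °C it read 16.7, 21.1 and 17.1 FPKM in dm, 18.6, 17.5 and 19.8 FPKM in pif4, and 19.5, 17.5 and 17.8 FPKM in WT. The temperatures overlapped in each genotype, and the log2 difference was -0.04 in dm, -0.03 in pif4 and -0.22 in WT (95% interval -0.49 to 0.05), none called. The ratio of CYP79F1 to CYP79F2 was 1.09 ± 0.14 in dm, 1.15 ± 0.080 in pif4 and 0.952 ± 0.12 in WT at 29 °C, against 1.87 ± 0.33 in dm, 2.02 ± 0.12 in pif4 and 2.17 ± 0.035 in WT at 22 °C (SD, n = 3). No ratio at 29 °C reached a ratio at 22 °C in any genotype. A ratio within a library shows unequal change of the pair and carries the uncertainty of the shared reads.

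**Figure D2:**
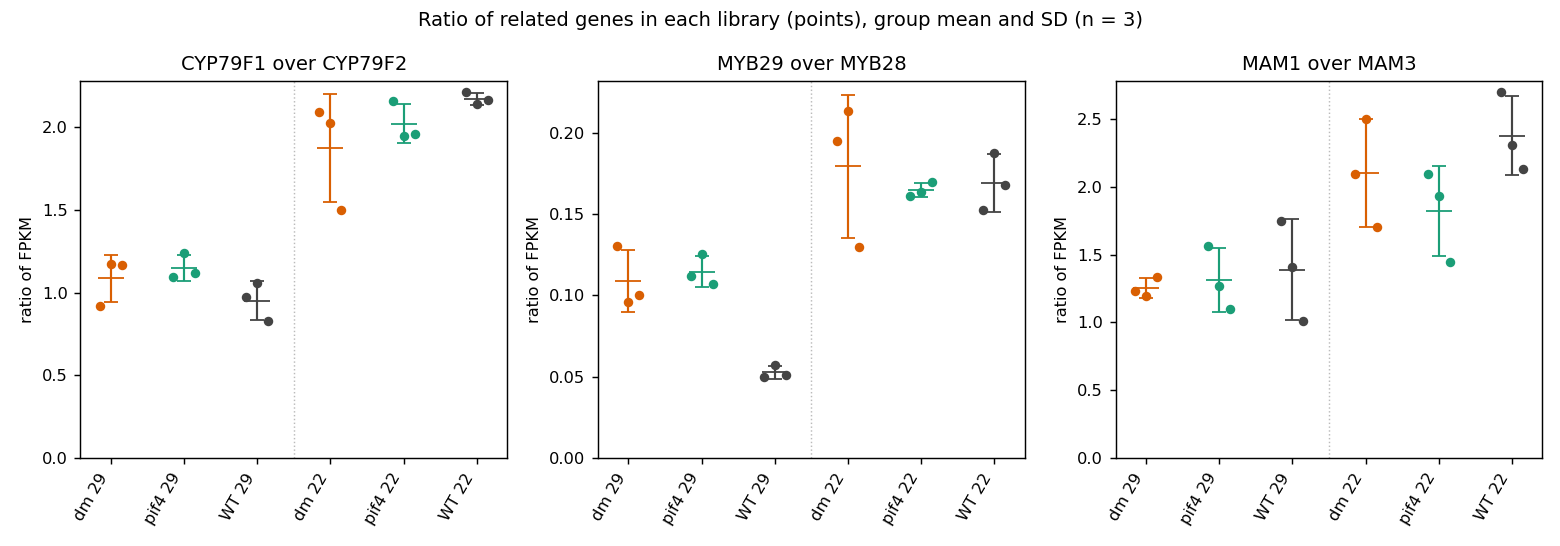
Ratio of FPKM of related genes in each library (y axis, from 0) in the 6 groups (x axis, 29 °C left of 22 °C), with the mean and SD of 3. CYP79F1 over CYP79F2 runs from 0.827 to 1.24 at 29 °C and from 1.498 to 2.21 at 22 °C, and MYB29 over MYB28 is lowest in WT at 29 °C.

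CYP83A1 (chr4:7990429-7992429, minus strand) oxidises the aldoximes and was the most abundant member. It read 90.5, 115 and 109 FPKM in dm at 29 °C against 137, 176 and 163 FPKM in dm at 22 °C, and 82.3, 116 and 148 FPKM in pif4 at 29 °C against 185, 146 and 195 FPKM in pif4 at 22 °C. In WT it read 86.1, 111 and 73.7 FPKM at 29 °C against 156, 130 and 185 FPKM at 22 °C. The temperatures overlapped in pif4 and stood apart in dm and WT. The log2 difference of -0.80 in WT was called (adjusted p = 0.0169), while -0.59 in dm (adjusted p = 0.0713) and -0.63 in pif4 (adjusted p = 0.0576) were not. The WT call ended without WT replicate 3 at 22 °C, or replicate 1 or 3 at 29 °C (adjusted p = 0.0748, 0.0507 and 0.0745), and also when the WT libraries were fitted alone (adjusted p = 0.0540).

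SOT18 (chr1:27862814-27864193, plus strand), a sulfotransferase of the last core step, was not called. It read 43.5, 61.7 and 53.0 FPKM in dm, 40.8, 66.1 and 72.0 FPKM in pif4, and 40.4, 65.5 and 39.5 FPKM in WT at 29 °C. At 22 °C it read 57.3, 72.8 and 56.8 FPKM in dm, 79.1, 61.1 and 68.4 FPKM in pif4, and 63.2, 46.8 and 66.3 FPKM in WT. The temperatures overlapped in all 3 genotypes, and the log2 difference was -0.24 in dm, -0.25 in pif4 and -0.30 in WT (adjusted p = 0.448 in WT). SOT18 overlaps AT1G74088 on the same strand, so its reads cannot all be assigned.

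**Figure D3:**
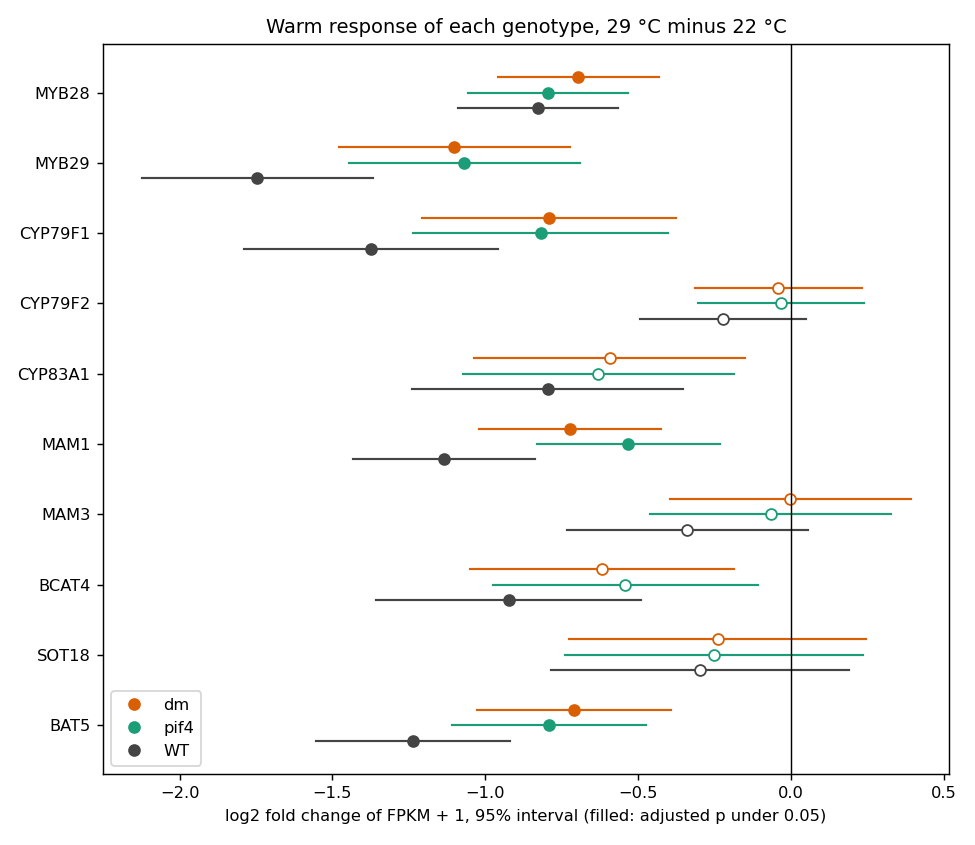
Log2 difference of FPKM + 1 at 29 °C minus 22 °C (x axis) for each of the 10 genes (y axis) in dm, pif4 and WT from top to bottom, with 95% intervals; filled points have an adjusted p under 0.05. The WT point is the leftmost of the 3 for every gene, at -1.75 for MYB29, and CYP79F2, MAM3 and SOT18 have no filled point.

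At 29 °C all 10 members averaged higher in each mutant than in WT, but none passed the test. The medians of the log2 differences were 0.34 in dm against WT and 0.39 in pif4 against WT, beside 0.02 and 0.01 over all genes. By limma 0 of 10 members were called in dm against WT (0.0157% of all genes were called in either direction) and 0 of 10 in pif4 against WT (0.136% of all genes). At an unadjusted p under 0.05 there were 5 members in dm and 6 in pif4, and 211 and 630 of the 19116 genes in dm and pif4. Libraries did not overlap, with the mutant higher, for 5 of 10 members in dm (2.8% of all genes) and 5 of 10 in pif4 (3.15%). These were MYB29, MAM1, MAM3, BCAT4 and BAT5 in dm, and MYB28, MYB29, MAM1, MAM3 and BCAT4 in pif4. Both comparisons share the 3 WT libraries, so a low WT library moves both.

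MYB29 stood furthest apart, at 2.08 ± 0.22 FPKM in dm, 2.42 ± 0.19 FPKM in pif4 and 0.978 ± 0.22 FPKM in WT at 29 °C (SD, n = 3). The log2 difference from WT was 0.64 in dm (95% interval 0.26 to 1.02, adjusted p = 1) and 0.80 in pif4 (0.42 to 1.17, adjusted p = 0.200). With a pseudocount of 0.1 in place of 1, the pif4 difference was 1.25 and was called (adjusted p = 0.0434). BCAT4 followed, at 93.6 ± 6.2 FPKM in dm, 110 ± 29 FPKM in pif4 and 67.0 ± 6.3 FPKM in WT, with differences of 0.48 in dm (0.05 to 0.91) and 0.68 in pif4 (0.24 to 1.11). MAM3, which had no called warm response, averaged 46.1 ± 3.1 FPKM in dm, 48.3 ± 8.5 FPKM in pif4 and 34.0 ± 6.5 FPKM in WT at 29 °C, or 0.44 higher in dm (0.05 to 0.84) and 0.50 higher in pif4 (0.10 to 0.89). MYB28 stood closest to WT in dm, at 0.07 (-0.19 to 0.33).

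At 22 °C the same comparisons gave differences on both sides of 0. They ran from -0.23 for CYP79F1 to 0.17 for BCAT4 in dm against WT, and from -0.16 for MAM1 to 0.29 for BCAT4 in pif4 against WT. By limma 0 of 10 members were called in dm (0.0262% of all genes in either direction) and 0 of 10 in pif4 (0.0209%), and 0 of 10 in either had an unadjusted p under 0.05. The widest interval, that of SOT18, ran from -0.40 to 0.58 in dm, so differences of such a size were not excluded at 22 °C.

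**Figure D4:**
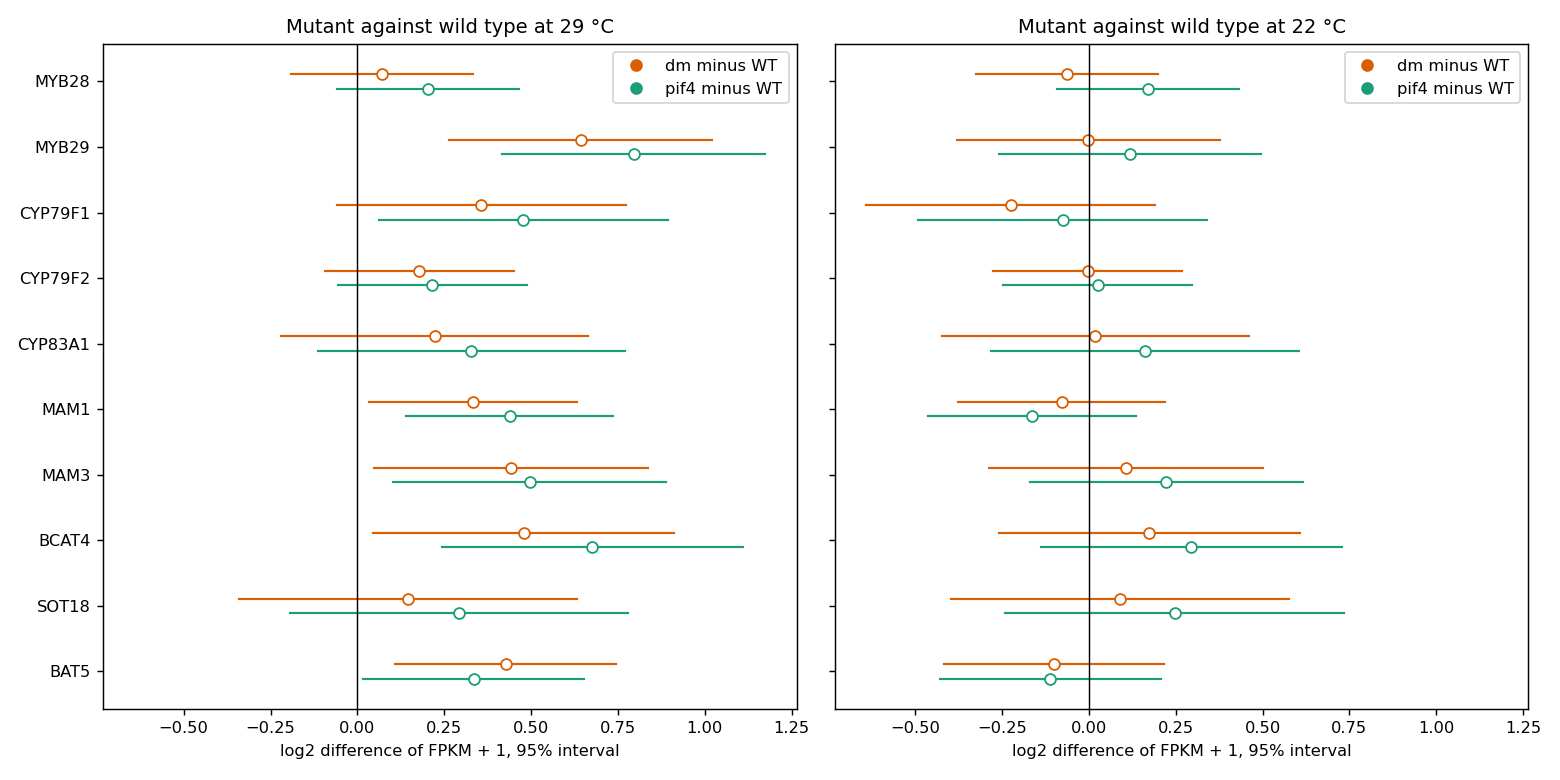
Log2 difference of FPKM + 1 of dm minus WT and pif4 minus WT (x axis, 95% intervals) for each of the 10 genes (y axis), at 29 °C on the left and 22 °C on the right. No point has an adjusted p under 0.05; at 29 °C all 20 points lie above 0, the furthest being MYB29 at 0.64 in dm and 0.80 in pif4.

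Whether the warm fall was smaller in the mutants was tested as a difference of the warm responses. Both differences subtract the same WT libraries, so they are not independent. By limma 0 of 10 members passed for dm against WT (0% of all genes were called) and 0 of 10 for pif4 against WT (0.0157%). In each of these comparisons 2 members had an unadjusted p under 0.05, but the share of all genes at that threshold is not given here. All 10 coefficients were above 0 in both, with medians of 0.32 in dm and 0.33 in pif4. Over all genes 48.7% in dm and 43.8% in pif4 were above 0, and among the 1634 genes that fell in WT 62.4% in dm and 61.9% in pif4. The 7 members that fell in WT had a median of 0.41 in dm and 0.45 in pif4, beside 0.05 in both for those 1634 genes, which were themselves chosen by their fall in WT. MYB29 had 0.64 in dm (95% interval 0.11 to 1.18) and 0.68 in pif4 (0.14 to 1.21), and MYB28 had 0.13 in dm (-0.24 to 0.50) and 0.03 in pif4 (-0.34 to 0.40).

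The mutants differed little from each other. In dm against pif4, 0 of 10 members were called at 29 °C (0.0942% of all genes were called) or at 22 °C (0.0314%), and 0 of 10 had an unadjusted p under 0.05 at either temperature. The differences ran from -0.20 for BCAT4 (95% interval -0.63 to 0.24) to 0.09 for BAT5 (-0.23 to 0.41) at 29 °C, and from -0.23 for MYB28 (-0.49 to 0.03) to 0.09 for MAM1 (-0.21 to 0.38) at 22 °C. These intervals do not show that the mutants act alike.

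Ordered by group mean, WT at 29 °C was the lowest of the 29 °C groups for all 10 members, and pif4 the highest for 9, the exception being BAT5, where dm was highest. For 8 members every group mean at 29 °C was below every group mean at 22 °C, the exceptions being MAM3 and SOT18. For MYB28, MYB29, CYP79F1, MAM1 and BAT5 this held for single libraries too, as with MYB28, whose highest library at 29 °C read 21.4 FPKM and whose lowest at 22 °C read 29.0 FPKM. These orders were not counted over all genes, so the counts do not show how far the members stand out. Within a temperature most neighbouring groups overlapped. The exceptions were dm above WT at 29 °C for MYB29, MAM1 and BCAT4, and, for MYB28, dm below pif4 at 29 °C (2.05% of all genes) and pif4 above WT at 22 °C (5.34% of all genes).

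The other genes of the route were counted from lists of the pathway's steps. All 5 further chain elongation genes fell in dm and in WT, and 3 of 5 in pif4. Of all genes 8.06% were called lower in dm, 8.49% in pif4 and 8.55% in WT. IPMDH1, the dehydrogenase that completes the round, averaged 63.7 ± 1.4 FPKM in dm, 69.8 ± 8.4 FPKM in pif4 and 46.4 ± 2.9 FPKM in WT at 29 °C, against 108 ± 7.1 FPKM in dm, 114 ± 28 FPKM in pif4 and 99.1 ± 16 FPKM in WT at 22 °C (SD, n = 3), with log2 differences of -0.75 in dm, -0.68 in pif4 and -1.07 in WT. The small isomerase subunit IPMI SSU2 changed by -0.87 in dm, -0.59 in pif4 (adjusted p = 0.0956) and -1.04 in WT, and IPMI SSU3 by -0.64 in dm, -0.54 in pif4 (adjusted p = 0.0923) and -0.87 in WT. BCAT3, an aminotransferase of the later steps, fell by 0.64 in dm, 0.66 in pif4 and 0.73 in WT, and the large isomerase subunit IPMI LSU1 by 0.49 in dm, 0.53 in pif4 and 0.57 in WT. The IPMDH1 transcript is 93.5% identical to that of IMD3 over most of its length, so its reads may be shared.

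Of 7 further core structure genes, 3 fell in dm (8.06% of all genes), 3 in pif4 (8.49%) and 5 in WT (8.55%). GSTU20, a glutathione transferase of the route, had the largest fall of any pathway gene in WT and averaged 116 ± 11 FPKM in dm, 135 ± 19 FPKM in pif4 and 92.9 ± 7.8 FPKM in WT at 29 °C, against 366 ± 42 FPKM in dm, 420 ± 103 FPKM in pif4 and 389 ± 103 FPKM in WT at 22 °C (SD, n = 3). Its log2 differences were -1.65 in dm, -1.62 in pif4 and -2.03 in WT. The C-S lyase SUR1, which the aliphatic and indolic routes share, fell by 0.59 in dm, 0.61 in pif4 and 0.81 in WT. SOT17, a sulfotransferase like SOT18, fell by 0.44 in WT and was not called in dm (-0.20) or pif4 (-0.31).

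GSTF11, another glutathione transferase, was the only gene of these lists called between a mutant and WT. It read 8.52, 11.2 and 12.8 FPKM in pif4 against 5.17, 5.79 and 4.63 FPKM in WT at 29 °C, a difference of 0.92 (adjusted p = 0.0369), and 7.14, 6.85 and 7.10 FPKM in dm at 29 °C, 0.38 above WT (adjusted p = 1). The pif4 call ended without the filter (adjusted p = 0.0541), when only the compared libraries were fitted (adjusted p = 1), without WT replicate 1, 2 or 3 at 29 °C (adjusted p = 0.196, 0.0621 and 0.164) and without pif4 replicate 2 or 3 at 29 °C (adjusted p = 0.242 and 0.187). The same call ended by limma without replicate 1 or 2 at 29 °C in all genotypes (adjusted p = 0.102 and 0.395). Between the temperatures GSTF11 fell by 0.89 in dm and 1.21 in WT and changed by -0.41 in pif4 without a call (adjusted p = 0.12).

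Of 7 side chain genes tested, 2 fell in dm (8.06% of all genes), 2 in pif4 (8.49%) and 3 in WT (8.55%). FMOGS-OX3 and FMOGS-OX1, flavin monooxygenases that oxidise the side-chain sulfur, fell in all 3 genotypes. The log2 difference of FMOGS-OX3 was -1.11 in dm, -1.16 in pif4 and -1.73 in WT, and that of FMOGS-OX1 -0.90 in dm, -0.92 in pif4 and -1.30 in WT. Their transcripts are 83.8% identical over the matching part, so reads may be shared. AOP2, which is not functional in Columbia, averaged 2.66 ± 0.92 FPKM in dm, 3.29 ± 0.67 FPKM in pif4 and 1.73 ± 0.39 FPKM in WT at 29 °C, against 4.39 ± 1.0 FPKM in dm, 5.22 ± 0.49 FPKM in pif4 and 5.001 ± 0.26 FPKM in WT at 22 °C (SD, n = 3), and was called in WT alone (-1.15). AOP3 was under the filter.

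Other lists covered regulation, transport and breakdown, and sulfur supply. Of the 4 other regulators MYB76 was under the filter and 0 of 3 were called in any genotype, MYC2, a partner of the MYB factors, reading 18.9, 46.1 and 37.2 FPKM in dm, 20.7, 43.0 and 39.5 FPKM in pif4, and 18.7, 48.8 and 26.5 FPKM in WT at 29 °C. Of 6 transport and breakdown genes ESM1, which affects the breakdown products, rose by 0.56 in dm and 0.55 in WT and was 0.31 higher in pif4 without a call (adjusted p = 0.139), while the myrosinase TGG1 was not called. Of 10 sulfur supply genes 0 fell in dm or pif4 and 1 in WT, the adenosine phosphosulfate kinase APK1 (-0.61), while 1 rose in dm, 2 in pif4 and 0 in WT. The count that fell in WT is near the share of all genes called lower there, 8.55%. Of all genes 5.52% were called higher in dm, 4.67% in pif4 and 5.63% in WT. SDI2, a sulfur-deficiency induced repressor of the route, rose by 0.77 in dm and 0.85 in pif4 and was 0.45 higher in WT (adjusted p = 0.240), and its relative SDI1 rose by 1.78 in pif4 and was 1.21 higher in dm (adjusted p = 0.0554) and 1.17 higher in WT (adjusted p = 0.0623).

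The indolic branch, which starts from tryptophan and shares some later enzymes such as SUR1 while using its own for other steps, gave a call for 0 of 9 genes tested in dm, 1 in pif4 and 1 in WT, where 8.06% of all genes were called lower in dm, 8.49% in pif4 and 8.55% in WT, so that the count is near the share over all genes. The gene was CYP79B3, at 64.3, 29.7 and 35.0 FPKM in dm, 52.8, 24.2 and 40.6 FPKM in pif4 and 60.4, 26.6 and 29.3 FPKM in WT at 29 °C, with log2 differences from 22 °C of -0.98 in dm (adjusted p = 0.0519), -1.04 in pif4 (adjusted p = 0.0393) and -1.08 in WT (adjusted p = 0.0311). Replicate 1 was the highest at 29 °C in each genotype.

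**Figure D5:**
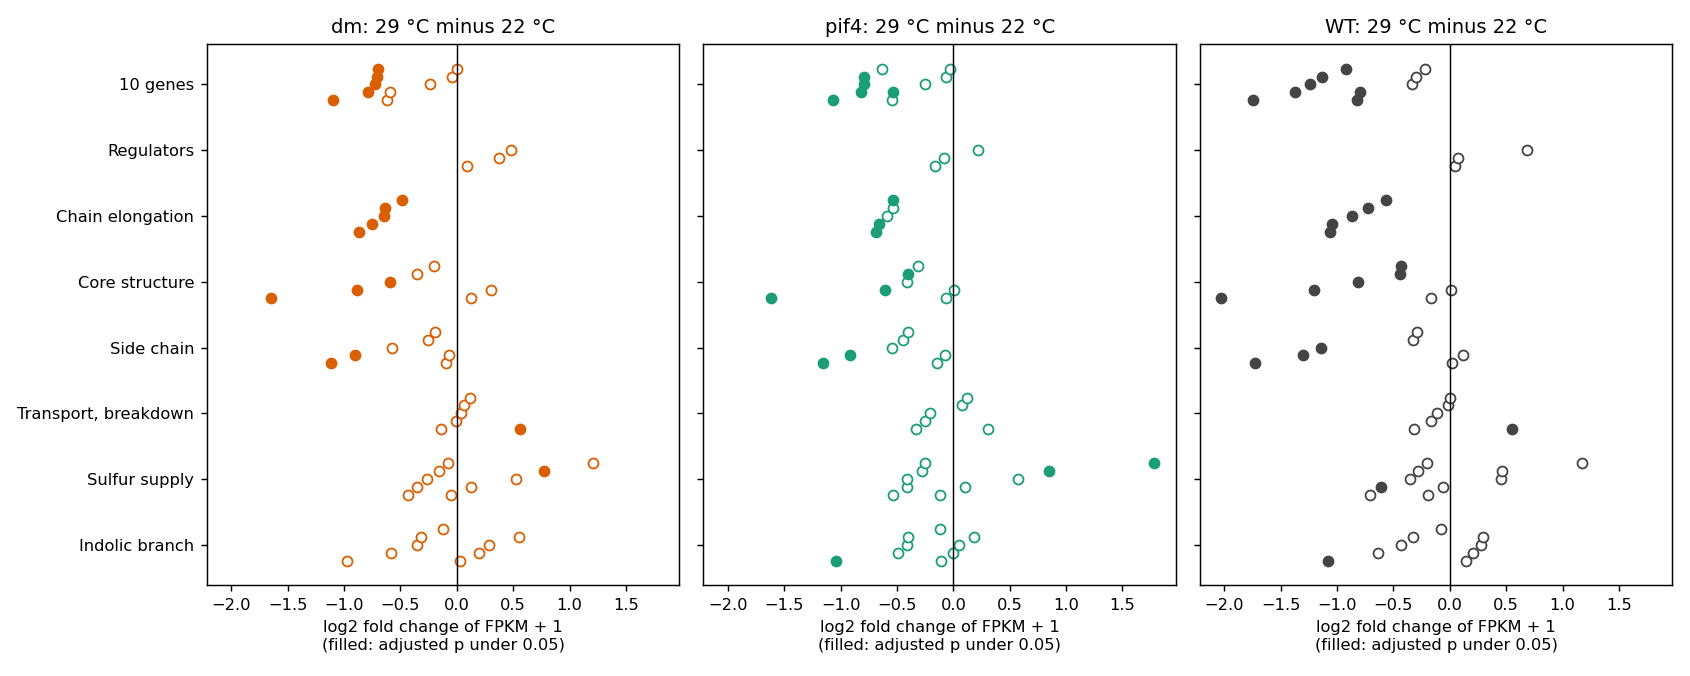
Log2 difference of FPKM + 1 at 29 °C minus 22 °C (x axis) of every tested gene of each list (y axis), in dm, pif4 and WT from left to right; filled points have an adjusted p under 0.05. Filled points left of 0 reach -2.03, for GSTU20 in WT; the sulfur supply list has 1 of them, APK1 in WT, and the indolic list has CYP79B3 in pif4 and WT.

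Libraries with the same replicate number differed alike in several genes. Replicate 2 was above replicate 1 in all 3 genotypes at 29 °C for 6 of 10 members, MYB28, CYP79F1, CYP79F2, CYP83A1, BCAT4 and SOT18, and below it for MAM1, beside 28.3% and 32.0% of all genes that were higher and lower. At 22 °C replicate 2 was above replicate 1 in all 3 genotypes for 4 of 10 members, MYB28, MYB29, MAM3 and BAT5, beside 12.5% of all genes. At 29 °C SOT18 had the widest mean gap of the members, 0.49 in dm, 0.68 in pif4 and 0.69 in WT on the log2 scale. Of 9 clock genes 8 were higher in replicate 2 in all 3 genotypes at 29 °C and TOC1 was lower, whereas at 22 °C LUX alone had 1 direction, lower, in all 3. PRR9, the widest of them, read 0.134, 12.1 and 3.25 FPKM in dm, 0.253, 13.6 and 3.57 FPKM in pif4, and 0.041, 9.84 and 3.08 FPKM in WT at 29 °C. Between the temperatures LUX, PRR5, TOC1 and ELF4 were higher and LHY lower at 29 °C in all 3 genotypes, all called. The log2 difference of LUX was 2.01 in dm, 2.04 in pif4 and 2.47 in WT. That of LHY was -1.04 in dm, -1.47 in pif4 and -1.34 in WT. PRR7 was called higher in pif4 alone, and CCA1, PRR9 and GI were not called. The part of these clock differences in the results was not tested. Without replicate 1 at 29 °C in all genotypes 5 members fell in dm, 5 in pif4 and 7 in WT, and without replicate 2 there 5 fell in dm, 4 in pif4 and 7 in WT. In these fits the share of all genes called lower was not counted.

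Likeness to the set was measured as Pearson's r with the mean of the 10 genes' standardised log2 values over the 18 libraries, as a description, since the points share libraries and the 2 temperatures. The members did not all follow this mean, though they are part of it. For MAM3 r was 0.60, for SOT18 0.75 and for CYP79F2 0.76, and for the other members it ran from 0.89 to 0.95. The most alike genes outside the set were FMOGS-OX3 and FMOGS-OX1 (r = 0.97 each), IPMI SSU3 (0.96), IPMDH1, DJ1F, TOE2, IPMI SSU2 and TAAC (0.95 each for these 5). DJ1F, TOE2 and TAAC are in none of the pathway lists used here, which may not hold every gene tied to the route. DJ1F changed by -1.08 in dm, -1.06 in pif4 and -1.32 in WT at 29 °C against 22 °C, all called. Taken as deviations from group means, which leaves out temperature and genotype, the most alike were AT5G53486 (0.85), FMOGS-OX1 (0.83), PLP6 (0.82), AT3G11250, FRD3 (0.81 each), NIP6;1, FMOGS-OX3 (0.80 each) and AT5G40020 (0.79). Among the members themselves deviations were closest for CYP83A1 with SOT18 (0.90), CYP83A1 with BCAT4 (0.85), MYB29 with BAT5 (0.84) and CYP79F2 with SOT18 (0.84), and lowest for CYP79F1 with MAM3 (-0.10).

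The 300 bases before each gene's annotated start were searched on both strands for letters bound by PIF factors and by MYB factors in general, since 7 of the 10 genes fell at 29 °C in WT. The G-box CACGTG lay before 1 of 10 members, CYP83A1, and before 7.09% of 27443 protein-coding genes, and CACATG before 0 of 10 and 13.1% of those genes. Of the AC elements, ACCTACC lay before CYP79F2 and CYP83A1 (1.33% of all), ACCAACC before BAT5 (3.18%) and ACCTAAC before 0 members (2.93%), so that 3 of 10 members and 7.16% of all genes held at least 1. None of these motifs overlapped another in a member. The windows of CYP83A1 (chr4:7992430-7992729, minus strand) and BAT5 (chr4:7210507-7210806, plus strand), from the RefSeq annotation of TAIR10.1, are printed 5′ to 3′ towards the gene, with the matches in capitals.
CYP83A1: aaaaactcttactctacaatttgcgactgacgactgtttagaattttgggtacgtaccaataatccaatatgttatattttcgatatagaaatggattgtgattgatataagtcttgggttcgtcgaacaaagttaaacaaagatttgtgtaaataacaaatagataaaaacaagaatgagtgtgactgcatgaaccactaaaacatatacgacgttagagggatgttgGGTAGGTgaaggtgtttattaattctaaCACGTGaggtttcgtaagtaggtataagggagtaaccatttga
BAT5: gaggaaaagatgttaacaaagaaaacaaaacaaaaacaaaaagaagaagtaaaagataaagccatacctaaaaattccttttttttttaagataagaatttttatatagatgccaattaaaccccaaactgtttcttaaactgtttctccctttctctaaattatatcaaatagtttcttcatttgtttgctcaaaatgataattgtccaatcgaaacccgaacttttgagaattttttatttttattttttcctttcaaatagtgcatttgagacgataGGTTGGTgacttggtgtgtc
In CYP83A1 the capitals are ACCTACC read on the opposite strand and the G-box 43 bases before the start, and in BAT5 they are ACCAACC read on the opposite strand. A match is a description of these letters and says nothing of binding, and CYP79F2, which holds a match, was among the members with no called warm response.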

How the data were processed

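Trizol RNA of 7-day seedlings went into TruSeq libraries, per the labels' protocols. The authors deposited FPKM per gene, 1 column per library, with 0 columns left without a sample. The submitters' processing notes name Bowtie 0.12.2 and mm8, which is a mouse assembly, whereas the rows are Arabidopsis loci; which genome, annotation and counting tool gave the FPKM is therefore not given in the sources used here. Sequencing depth is unknown, so no counting intervals are given.

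The 10 genes, the pathway lists and the tests were chosen with earlier results of these data known. From the FPKM, log2(FPKM + 1) was fitted with limma 3.58.1 in R 4.3.3 over all 18 libraries, with a coefficient per group and variances with a trend on the mean, on the 19116 of 33602 genes that reached 1 FPKM in 3 or more libraries. The 11 contrasts were tested 2-sided with Benjamini-Hochberg adjustment at 0.05. The fit was tested on simulated data. Named genes are the 10 members, the targeted genes and up to 4 called genes of each list by smallest p in WT. Any gene called between mutant and WT and the 8 most alike by each measure (mean of at least 5 FPKM in a group) were added. SDI1, SDI2, MYC2, TGG1, PRR9 and the other clock genes outside these rules were chosen after their values were seen. Alternatives were a pseudocount of 0.1, no filter, median-of-ratios size factors, the compared libraries alone, no variance trend, a replicate block and leaving out libraries. Same-numbered libraries deviated together in dm against WT at 29 °C (r = 0.70, 0.73 and 0.24) and pif4 against WT at 22 °C (r = 0.50, 0.49 and 0.60), a pairing seen in the data and not stated in the labels. At 29 °C replicates 1 and 2 did so too in pif4 against WT (0.47 and 0.69) and dm against pif4 (0.69 and 0.78), but replicate 3 did not (-0.32 and 0.05). At 22 °C r was 0.13, -0.06 and 0.56 in dm against WT and 0.23, 0.01 and 0.52 in dm against pif4. Gene positions, overlaps and sequences came from the RefSeq annotation of TAIR10.1, where 32835 of the identifiers were found, and close copies from blastn 2.17.0.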

Additional observations from a re-analysis of the deposited data

How the results depend on the processing

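No direction of a member's called change turned under any alternative. Members that fell at 29 °C numbered 4 to 5 in dm, 4 to 7 in pif4 and 6 to 7 in WT when a library was left out, and 7 for dm, 4 for pif4 and 6 for WT with only the compared libraries. The share of all genes called lower under each alternative was not counted. With a pseudocount of 0.1, 1 member in place of 0 was called higher in pif4 than in WT at 29 °C, MYB29, since a smaller pseudocount shrinks the log differences of low values less. Size factors added BCAT4 in dm (adjusted p = 0.0492) and moved the median of all genes by at most 0.034.

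With the replicate number as a block, 6 members fell in dm, 7 in pif4 and 7 in WT, and with a block within temperature 7 fell in each. The share of all genes called lower under either block was not counted, so these member counts have no background. With the block within temperature, BCAT4 was among the members newly called in dm (adjusted p = 0.0239). BCAT4 and CYP83A1 were newly called in pif4 (adjusted p = 0.0454 and 0.0488). Over all contrasts and listed genes, the block within temperature added 36 calls, 4 of them for members, and ended 2, so it raised calls beyond the members. Same-numbered libraries of the 2 temperatures did not deviate together (r from -0.38 to 0.18), and 0 of 6 libraries in dm, 1 in pif4 and 0 in WT correlated best with their own number. The block changed no call of a member in the comparisons of genotypes or of warm responses. Values near 1 FPKM, as MYB29 in WT at 29 °C, rest on few reads of unknown number.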
